A study of Mus musculus with 6 samples.

Results

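Contractile myofibroblastic fibroblasts are described here as 168 cells out of 482 fibroblasts and 47794 cell barcodes from mouse pancreatic tumours. A barcode counted as a fibroblast when its collagen transcripts Col1a1, Col1a2, Col3a1 and Dcn summed to at least 10 unique molecular identifiers (UMIs, each 1 counted transcript molecule). It also had to hold no Ptprc, no Pecam1 or Cdh5, and at most 1 UMI each of Epcam plus Krt19 and of Rgs5, which mark leukocytes, endothelium, epithelium and pericytes. A fibroblast was called contractile when Acta2, Tagln and Myl9 summed to at least 3 UMIs and exceeded a second, opposing sum. The opposing genes were Dpt, Clec3b, Has1, Pi16, Col14a1 and Ly6c1, genes of tissue-resident and of inflammatory fibroblasts. The remaining 314 fibroblasts are the comparison throughout and are called the other fibroblasts.

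Myofibroblasts are fibroblasts that assemble actin and myosin into contractile stress fibres, and smooth muscle α-actin, the product of Acta2, is their usual marker. Signals of the TGF-beta and activin family and mechanical tension drive the state, largely through the transcription factor SRF, which binds a short DNA element called the CArG box in the promoters of contractile genes. In pancreatic cancer such cells make much of the dense collagenous stroma around the tumour glands and are commonly set apart from inflammatory fibroblasts, which secrete cytokines, chemokines and complement, and from antigen-presenting fibroblasts, which carry MHC class II.

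The tumours were grown from the KPC line of pancreatic cancer cells, placed orthotopically, that is in the pancreas, of wild-type C57BL/6J mice. Mice were assigned at random to control IgG or to the antibody #44-anti-mVSIG4 against mouse VSIG4, a complement receptor of tissue macrophages, and each group held 3 mice. Tumour tissue was taken 11 days after inoculation, and each mouse gave 1 droplet single-cell RNA library, made with the DNBelab C TaiM4 V3.0 platform. The age and sex of the mice and the antibody doses are not given in the sources at hand. The cancer cells are an implanted line and did not arise in the pancreas of these mice. Mice are numbered within their group as the labels number them: IgG 1, 2 and 3 and anti-VSIG4 1, 2 and 3.

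The libraries held between 26606234 and 47221033 UMIs, and every deposited barcode had at least 1000. Any pair of libraries shared 1018 to 1827 barcode names. Of the 19679 names shared over all pairs, 3 had equal UMI totals, so shared names were treated as separate cells. The libraries differed in barcodes resembling nuclei, taken as those with over 15% of UMIs from genes spanning more than 100 kb: IgG 1, anti-VSIG4 1 and anti-VSIG4 2 held 0.651% to 1.47% of them, and IgG 2, IgG 3 and anti-VSIG4 3 held 9.74% to 48.6%. This line between 2 kinds of library, at 5%, was drawn after the data were seen. Among the contractile cells 10 of 168 were nucleus-like (5.95%), against 61 of 314 other fibroblasts (19.4%).

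Contractile cells numbered 24, 23 and 43 in IgG 1, 2 and 3 and 11, 54 and 13 in anti-VSIG4 1, 2 and 3. The other fibroblasts numbered 102, 49 and 63 and then 19, 67 and 14. A contractile cell had a median of 5130 UMIs and 1771 genes, against 3823 UMIs and 1352.5 genes in the other fibroblasts. The median depth of contractile cells ranged from 2250 UMIs in IgG 3 to 20623 in anti-VSIG4 3, so anti-VSIG4 3 rests on few but deep cells.

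The cells were chosen by their own UMIs of these genes, whose values are therefore given as a description, with no test. The sum of Acta2, Tagln and Myl9 had a median of 11.5 UMIs (quartiles 6.75 and 30.25) and a maximum of 362 in the contractile cells, and 96 of them held 10 or more. Just inside the threshold lay 13 cells with a sum of 3 and 13 with a sum of 4. Just outside lay 14 cells with a sum of 2 above their opposing sum and 29 cells with 3 or more that did not exceed it. The plot of the sums that split the fibroblasts shows a continuum near the threshold and no gap between the classes.

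**Figure D1:**
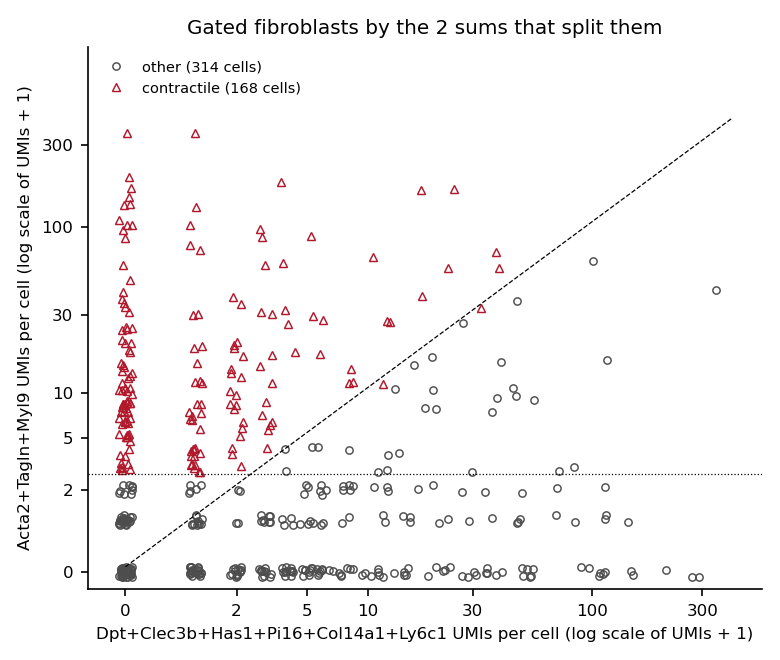
Each point is 1 of the 482 gated fibroblasts. Its place is set by its UMIs of the opposing genes (horizontal axis) and of Acta2, Tagln and Myl9 (vertical axis). Both axes have a log scale of UMIs + 1, with a small random shift. The dotted line marks 3 UMIs and the dashed line equal sums; the 168 contractile cells lie above both, and 26 of them have a sum of 3 or 4.

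Tagln, which encodes the actin-binding protein transgelin, was present in 166 of the 168 contractile cells, Acta2 in 127 and Myl9, a regulatory light chain of myosin, in 95. All 3 genes were present in 81 cells, and 27 cells qualified through Tagln alone. Acta2 stood at 989, 914 and 499.6 CPM in IgG 1, 2 and 3 and 386, 1390.2 and 397 CPM in anti-VSIG4 1, 2 and 3. These levels are UMIs of the gene per 1000000 UMIs (CPM), summed over the contractile cells of a mouse. Anti-VSIG4 2 had the highest Acta2 and the other anti-VSIG4 mice the lowest, so the 2 groups overlapped. Tagln stood at 2465, 4035 and 2106 CPM in IgG 1, 2 and 3 and 1371, 2872 and 2173 CPM in anti-VSIG4 1, 2 and 3, highest in IgG 2. In the other fibroblasts Acta2 averaged 63.3 CPM and Tagln 239 CPM over the 6 mice. Barcodes with at least 2 Ptprc UMIs and at most 1 collagen UMI, which should lack these genes, served as a background. Of these 7396 barcodes 6.58% held any UMI of the 3 genes and 0.0946% held 3 or more, at a median depth of 3183 UMIs. The share with any UMI was 4.35%, 3.67% and 5.66% in IgG 1, 2 and 3 and 11.1%, 11.7% and 5.94% in anti-VSIG4 1, 2 and 3. Whether these UMIs came from free RNA or from doublets was not tested.

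When every fibroblast was thinned to 1000 UMIs, Acta2 was seen in 44.0% of contractile and 7.01% of other cells, against 75.6% and 16.6% without thinning. Col1a1, the α1 chain of type I collagen and part of the gate, averaged 11091 CPM in contractile and 8241 CPM in other cells. Dcn, the small proteoglycan decorin and also part of the gate, averaged 853 and 1604 CPM.

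Postn, which encodes periostin and is one of the 5 markers of this cell type, did not differ detectably between the states. It stood at 104, 85.7 and 176 CPM in IgG 1, 2 and 3 and 107, 194 and 124 CPM in anti-VSIG4 1, 2 and 3 in the contractile cells. The other fibroblasts held Postn at 305, 231 and 113 CPM in IgG 1, 2 and 3 and 103, 42.04 and 220.4 CPM in anti-VSIG4 1, 2 and 3. The contractile cells were higher in 3 mice and lower in 3, with a fitted log2 difference of -0.19 ± 0.47, adjusted p = 0.923 by edgeR's quasi-likelihood test with Benjamini-Hochberg adjustment. The fitted difference turned to 0.21 when cells with a sum of 2 were let in, to 0.11 without IgG 1 and to 0.05 without IgG 2. The cells are therefore described as contractile by their actin and myosin genes, and periostin did not set them apart.

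Promoters of the rule genes Acta2 and Myl9 and of Cnn2 and Myl6 are shown because SRF acts on this class of gene through the CArG box. Cnn2 and Myl6 are the only genes called higher in the test described below with a full match. No promoter sequence was at hand for Tagln. Each window runs 5′ to 3′ on the gene's strand from 250 bases before to 50 after the start of transcription, from RefSeq on GRCm38.p6. Capitals mark a CArG box (CC, 6 bases that are A or T, GG) or a match in which 1 of the 6 inner bases is another base. The pattern reads the same on both strands. The Acta2 window (chr19:34255324-34255623, minus strand) held matches with 1 other base 84 and 34 bases before the start. The Myl9 window (chr2:156775214-156775513, plus strand) held a full match 161 bases before the start and a match with 1 other base 99 bases before it.
Acta2: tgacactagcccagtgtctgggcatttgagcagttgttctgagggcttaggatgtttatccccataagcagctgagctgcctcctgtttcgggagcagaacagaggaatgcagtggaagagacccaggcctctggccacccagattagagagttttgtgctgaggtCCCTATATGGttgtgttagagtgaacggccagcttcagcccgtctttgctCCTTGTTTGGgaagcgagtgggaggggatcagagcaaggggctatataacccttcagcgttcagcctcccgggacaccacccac
Myl9: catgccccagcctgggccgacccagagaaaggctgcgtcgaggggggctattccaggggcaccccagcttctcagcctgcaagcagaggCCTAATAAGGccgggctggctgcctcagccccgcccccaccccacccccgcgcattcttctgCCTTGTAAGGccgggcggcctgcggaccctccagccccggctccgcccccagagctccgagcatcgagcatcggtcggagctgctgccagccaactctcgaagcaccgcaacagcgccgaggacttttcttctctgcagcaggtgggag
Cnn2, which encodes calponin 2 (chr10:79988350-79988649, plus strand), held a full match 56 bases before the start. Myl6, the essential myosin light chain, has 2 listed starts. The window shown (chr10:128492960-128493259, minus strand) held a full match 50 bases before its start, and that of the other start (chr10:128493837-128494136) held no match of either kind.
Cnn2: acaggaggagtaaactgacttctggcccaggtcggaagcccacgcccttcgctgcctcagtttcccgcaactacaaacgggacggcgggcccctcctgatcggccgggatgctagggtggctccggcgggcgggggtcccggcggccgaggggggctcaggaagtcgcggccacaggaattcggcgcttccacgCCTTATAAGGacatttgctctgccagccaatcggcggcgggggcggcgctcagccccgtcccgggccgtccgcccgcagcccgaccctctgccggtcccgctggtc
Myl6: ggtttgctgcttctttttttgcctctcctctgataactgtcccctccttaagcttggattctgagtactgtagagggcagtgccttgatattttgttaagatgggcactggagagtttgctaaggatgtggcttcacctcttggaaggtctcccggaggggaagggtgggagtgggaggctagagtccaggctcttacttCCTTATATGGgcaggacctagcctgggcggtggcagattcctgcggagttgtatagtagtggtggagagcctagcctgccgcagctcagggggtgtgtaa
A full match was found in 1.63% of all 32851 promoter windows of this length, and a match allowing 1 other base in 9.98%. Of the 37 genes called higher in contractile cells in the test described below, 28 had a window, and a gene was counted where any of its windows held a match: Cnn2 and Myl6 held a full match (7.14%), and Cnn2, Itgb1, Lpp, Mmp14, Myl6, Serinc2 and Timp3 held one allowing 1 other base (25%). Of the 36 genes called lower, 29 had a window, of which none held a full match and 2 (6.90%) held one allowing 1 other base. The 2460 tested genes with a window held 2.07% and 11.3%. A match is a run of letters and not a measured binding site.

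Smooth muscle cells and pericytes also express Acta2, and their markers were read in the same cells. Out of 1425406 UMIs the contractile cells together held 3 of Rgs5, 11 of Notch3, 9 of Kcnj8 and 3 of Abcc9, all pericyte genes. Of the pericyte genes Cspg4, Mcam and Higd1b they held 26, 8 and 0. In the same order the other fibroblasts held 0, 10, 30, 9, 23, 10 and 2 UMIs, out of 2007765. A count of 0 allows up to 2.10 CPM over the contractile cells. Rgs5 was limited by the gate itself. Another 8 barcodes met every condition except the limit on Rgs5. Pooled they held 1269 CPM of Rgs5 (80 UMIs), 508 CPM of Notch3 (32 UMIs), 349 CPM of Myh11 (22 UMIs) and no Pdgfra. With so few barcodes a count of 0 sets no tight limit on Pdgfra. In the contractile cells pooled Notch3 was 7.72 CPM, Myh11 was 13.3 CPM, and Pdgfra, a receptor of fibroblasts, was 67.3 CPM. Pdgfrb, also on the fibroblast marker list, was 77.9 CPM in the contractile cells and 365 CPM in the 8 barcodes. Cnn1 was 96.8 CPM in the contractile cells and 127 CPM in the 8 barcodes.

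Some genes shared with smooth muscle were nevertheless present in the contractile cells. Cnn1, smooth muscle calponin, had 138 UMIs against 22 in the other fibroblasts, and Actg2, smooth muscle γ-actin, had 103 against 7, although reads of the closely similar actin genes may have been split between them. Myh11, the smooth muscle myosin heavy chain, had 19 against 4. All 3 were too sparse for the test. The 7 smooth muscle markers summed to 532 to 692 CPM in the contractile cells of IgG mice and 206 to 568 CPM in those of anti-VSIG4 mice, against 98.9 to 222 and 72.1 to 419 CPM in the other fibroblasts. None of the 7 was at 0. The 8 pericyte markers summed to 586 to 760 and 396 to 615 CPM in contractile cells and to 122 to 497 and 82.4 to 430 CPM in the others, and most of this sum was Ndufa4l2 (777 UMIs). Ndufa4l2, a mitochondrial complex I-associated protein induced by hypoxia, averaged 540.3 ± 130.1 against 212 ± 156 CPM and did not pass the test (1.56 ± 0.42, adjusted p = 0.127; 0.0051 with both states thinned to 2000 UMIs per cell). Des, the muscle intermediate filament desmin, averaged 223 ± 94.3 against 91.1 ± 59.2 CPM and did not pass either (1.41 ± 0.41, adjusted p = 0.124). Whether a few smooth muscle cells or pericytes were counted among the contractile cells was not tested. Of the endothelial markers Pecam1 and Cdh5 were at 0 through the gate and Cldn5 was at 0 as well. Kdr, Flt1 and Egfl7 were detected, and the list summed to at most 57.2 CPM in the contractile cells. T cell markers summed to 34.3 to 155 CPM in the contractile cells of IgG mice and 56.2 to 171 CPM in those of anti-VSIG4 mice, acinar markers to 104 to 354 and 18.7 to 278 CPM, and red cell markers to 3.59 to 41.8 and 41.2 to 182 CPM, with no marker of these lists at 0.

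The first comparison asked whether treatment altered how many fibroblasts were contractile. The share of contractile cells among fibroblasts was 19.05% in IgG 1 (95% Wilson interval 13.1% to 26.8%), 31.9% in IgG 2 (22.3% to 43.4%) and 40.6% in IgG 3 (31.7% to 50.1%). It was 36.7% in anti-VSIG4 1 (21.9% to 54.5%), 44.6% in anti-VSIG4 2 (36.1% to 53.5%) and 48.1% in anti-VSIG4 3 (30.7% to 66.0%). IgG 3 lay above anti-VSIG4 1, so the groups overlapped. The means were 30.5% ± 10.8 (SD, n = 3) and 43.1% ± 5.88 (n = 3), a difference of 12.6 percentage points (exact two-sided permutation p = 0.2, where 3 against 3 cannot go below 0.1). Within the libraries with few nucleus-like barcodes the difference was 21.6 points, and within those with many it was 11.9.

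With nucleus-like cells left out, the shares were 20.5%, 41.7% and 54.1% in the IgG mice and 36.7%, 44.2% and 45.5% in the anti-VSIG4 mice. The difference was then 3.35 points (exact permutation p = 0.8), and IgG 3 held the highest share. Thinning each fibroblast to 1000 UMIs before applying the rule gave a difference of 6.77 points (exact permutation p = 0.3). Leaving out cells with over 0.5% myeloid UMIs, a limit set after the data were seen, gave 19.4 points (exact permutation p = 0.1), and leaving out cells with more than 3 gave -24.6 points (p = 0.2) with 1 fibroblast left in each of anti-VSIG4 1 and 3. As a share of all barcodes, contractile cells made up 0.335%, 0.280% and 0.450% in the IgG mice and 0.115%, 0.828% and 0.191% in the anti-VSIG4 mice. The 95% Wilson intervals were 0.225% to 0.498%, 0.187% to 0.42% and 0.334% to 0.605%, and then 0.0645% to 0.207%, 0.636% to 1.08% and 0.112% to 0.327%. Anti-VSIG4 2 was above all IgG mice and the other anti-VSIG4 mice below all of them. The mean difference was 0.0237 percentage points (exact permutation p = 1), and without anti-VSIG4 2 it was -0.201. It was 0.137 within the libraries with few nucleus-like barcodes and -0.174 within those with many. A difference in abundance was thus not detectable with 3 mice a group. Intervals cover counting error only.

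**Figure D2:**
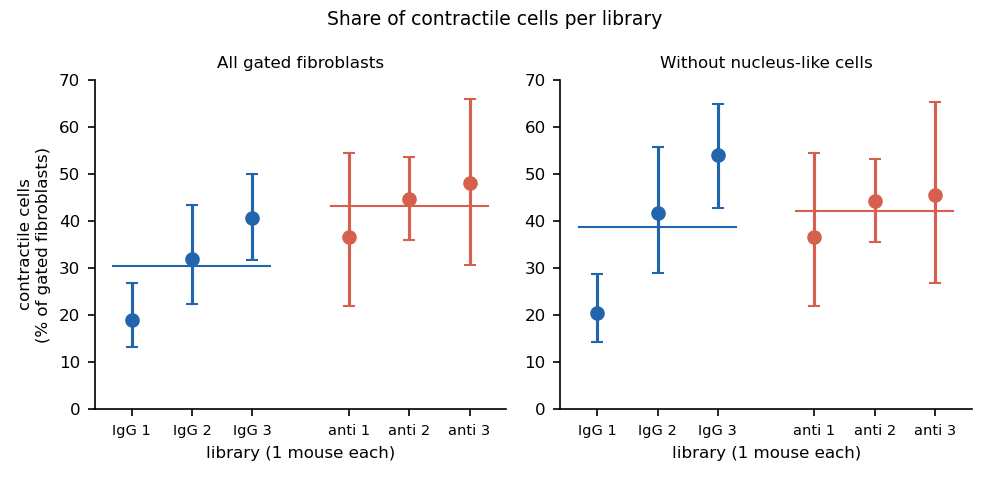
Points give the share of contractile cells among gated fibroblasts in each library, in percent, with 95% Wilson intervals as bars and group means as horizontal lines, over all gated fibroblasts on the left and without nucleus-like cells on the right. The group means are 30.5% and 43.1% on the left, and IgG 3 reaches 54.1% on the right.

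The next comparison set contractile cells against the other fibroblasts of the same mouse, over 6 mice. Of 3154 genes outside the rule that passed the filter on low counts, 37 were higher (1.17%) and 36 lower (1.14%) in contractile cells, 73 in all (2.31%), at an adjusted p below 0.05. Log2 changes are fitted contractile minus other values with standard errors, and adjusted p-values are from edgeR's quasi-likelihood test with Benjamini-Hochberg adjustment over all 3154 genes. The split was made on these same cells, so a call says that a gene went with the genes of the rule and gives no support to the split itself. The number of calls was 37 without IgG 1, 48 without IgG 2 and 23 without the pairing by mouse. Contractile cells were deeper, so cells of both states were also thinned to 2000 UMIs. Cells below that were left out: 24, 10 and 33 in IgG 1 to 3 and 7, 35 and 8 in anti-VSIG4 1 to 3. In the cells kept 690 genes were tested and 50 were called, 18 higher and 32 lower. Of the 73 genes 32 were still tested, all with the same sign, and 20 of them were called; the other 30 calls were of other genes.

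Genes of the contractile apparatus other than those that chose the cells were higher in 11 of 19 cases. Of 24 genes listed for the contractile cytoskeleton, the rule's own left out, 19 were tested and none was lower, and 1.17% of all tested genes were higher. All 19 had a fitted change above 0 (49.3% of all tested genes), with a median of 0.83 on the log2 scale (-0.01 over all genes). Tpm1, a tropomyosin that runs along actin filaments, stood at 779.9, 846 and 604 CPM in IgG 1, 2 and 3 and 449.8, 685 and 648 CPM in anti-VSIG4 1, 2 and 3. Tpm1 in the other fibroblasts stood at 321, 286 and 261 CPM in IgG 1, 2 and 3 and 185, 217 and 286 CPM in anti-VSIG4 1, 2 and 3. Every contractile value was above every value of the other fibroblasts, and the change was 1.35 ± 0.17, adjusted p = 6.81e-05. Palld, the actin cross-linker palladin, stood at 648, 754 and 625 CPM in IgG 1, 2 and 3 and 461, 466 and 633 CPM in anti-VSIG4 1, 2 and 3, against 288, 157 and 201 CPM in IgG 1, 2 and 3 and 185, 226 and 375 CPM in anti-VSIG4 1, 2 and 3 in the other fibroblasts (1.35 ± 0.20, adjusted p = 0.000366). Cnn2 averaged 554 ± 211 against 232 ± 90.5 CPM (1.27 ± 0.23, adjusted p = 0.005), and IgG 2 was far above the other mice with 983 CPM. Palld and Cnn2 were higher in the contractile cells of all 6 mice, as were 4.44% of all tested genes.

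Further motor and cross-linking genes passed. Mylk, the kinase that switches on myosin, averaged 134 ± 72.97 against 52.2 ± 13.01 CPM (1.20 ± 0.25, adjusted p = 0.0109), and Myh10, a non-muscle myosin heavy chain, 66.3 ± 15.99 against 23.6 ± 8.62 CPM (1.38 ± 0.31, adjusted p = 0.0164). Myl6, whose promoter is shown above, averaged 2856 ± 316 against 1786 ± 364 CPM (0.68 ± 0.14, adjusted p = 0.01). Cald1, the regulator caldesmon, rose by 0.78 ± 0.15 on the log2 scale (adjusted p = 0.00528), Tpm4 by 0.85 ± 0.19 (0.0144), Cnn3 by 0.83 ± 0.19 (0.0222), the cross-linker Flna by 0.87 ± 0.20 (0.0222) and Actn1, α-actinin, by 0.79 ± 0.21 (0.0459). Tpm2, β-tropomyosin, averaged 1217 ± 501 against 491 ± 208 CPM but did not pass (1.31 ± 0.33, adjusted p = 0.093), nor did Csrp1 (0.83 ± 0.22, adjusted p = 0.0509) or the smooth muscle gene Smtn (0.71 ± 0.28, adjusted p = 0.226). In the thinned cells Tpm2 (1.32 ± 0.21, adjusted p = 0.00176) and Csrp1 (0.90 ± 0.24, adjusted p = 0.0331) passed, while Cald1 and Actn1 (0.11 each) did not.

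Single libraries decided part of these calls, while Tpm1, Palld, Cnn2, Cald1 and Myl6 passed with any 1 library left out. The adjusted p of Mylk was 0.089 without IgG 1, that of Tpm4 0.096 without IgG 2 and that of Myh10 0.075 without IgG 2 and 0.052 without IgG 3. For Cnn3 it was 0.16 without IgG 1, 0.064 without IgG 2 and 0.07 without IgG 3. For Flna it was 0.16 without IgG 1, 0.096 without IgG 2, 0.084 without IgG 3 and 0.07 without anti-VSIG4 2. For Actn1 it was 0.22 without IgG 1, 0.18 without IgG 2, 0.062 without IgG 3, 0.076 without anti-VSIG4 1 and 0.11 without anti-VSIG4 2. The list held 7 calls without IgG 1 and 6 without IgG 2, and its median stayed between 0.76 and 0.97 in every setting run.

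Cells pull on matrix through integrin adhesions, and 13 of 18 adhesion genes were tested. Itgb1, the β1 integrin common to collagen and fibronectin receptors, was higher (0.70 ± 0.18, adjusted p = 0.0365), as was Lpp, a LIM protein of adhesions and stress fibres (0.89 ± 0.23, adjusted p = 0.0436). The other 11 did not pass, and 1.17% of all tested genes were higher. Fitted changes were above 0 in 11 of 13, against 49.3% of all tested genes, and the median was 0.47. The adjusted p of Itgb1 was 0.16 without IgG 1, 0.078 without IgG 2, 0.1 without IgG 3, 0.092 without anti-VSIG4 2 and 0.091 without anti-VSIG4 3. That of Lpp was 0.23 without IgG 1, 0.091 without IgG 2, 0.054 without anti-VSIG4 1, 0.21 without anti-VSIG4 2 and 0.059 without anti-VSIG4 3.

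Of the ligands, receptors and regulators of the TGF-beta and activin family, 18 of 29 were tested. Of these 2 were higher, against 1.17% of all tested genes, and none was lower. Fitted changes were above 0 in 10 of the 18, against 49.3% of all tested genes, with a median of 0.24. Inhba, which encodes the subunit of activin A, stood at 779.9, 697 and 852 CPM in IgG 1, 2 and 3 and 428, 363 and 738 CPM in anti-VSIG4 1, 2 and 3 in contractile cells. The other fibroblasts held Inhba at 125, 148 and 153 CPM in IgG 1, 2 and 3 and 82.4, 136 and 474 CPM in anti-VSIG4 1, 2 and 3. The contractile cells were higher in all 6 mice (643 ± 199 against 186 ± 143 CPM; 1.93 ± 0.23, adjusted p = 7.82e-05), and the anti-VSIG4 3 mouse had the highest Inhba among the other fibroblasts. Ltbp2, a microfibril protein related to the latent TGF-beta binding proteins, averaged 110.2 ± 67.1 against 31.8 ± 11.9 CPM (1.80 ± 0.30, adjusted p = 0.00189). Both passed with any 1 library left out. Tgfb3, a TGF-beta ligand, averaged 234 ± 161 against 104 ± 49.9 CPM and did not pass (1.11 ± 0.36, adjusted p = 0.156). None of the 5 tested genes of 16 listed for SRF and YAP, the tension-sensitive transcription pathways, passed, with a median of 0.15.

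Collagens and matrix proteins were split. Col12a1, a fibril-associated collagen that bridges type I fibrils, averaged 492 ± 134 against 219 ± 82.4 CPM (1.20 ± 0.17, adjusted p = 0.000233) and was the 1 call among 9 tested fibril-forming and associated collagens outside the rule (median 0.19). None of 10 tested basement membrane genes passed (median 0.03), and none of 17 genes of collagen processing (median 0.23). Among all tested genes 1.17% were higher and 1.14% lower. Of 24 tested genes of the myofibroblast matrix list 2 were higher and none was lower (median 0.10). These were Thbs2, thrombospondin 2 (153 against 57.3 CPM; 1.30 ± 0.28, adjusted p = 0.0116), and Bgn, the proteoglycan biglycan (5049 against 3351 CPM; 0.57 ± 0.14, adjusted p = 0.0256). Among small proteoglycans Ogn, osteoglycin, was lower (-1.62 ± 0.35, adjusted p = 0.0116). Tnc, tenascin C, averaged 491 ± 226 against 264 ± 187 CPM without passing (1.08 ± 0.37, adjusted p = 0.198), and neither did Col8a1 (0.81 ± 0.22, adjusted p = 0.0548). Col12a1 passed with any 1 library left out. The myofibroblast matrix list had no call without IgG 1, without anti-VSIG4 2 or without the pairing by mouse. It also had none when cells with a sum of 2 were let in. The adjusted p of Thbs2 was 0.076 without IgG 1, 0.07 without IgG 3 and 0.065 without anti-VSIG4 2, that of Bgn 0.17 without IgG 1, 0.052 without IgG 3, 0.077 without anti-VSIG4 2 and 0.061 without anti-VSIG4 3 and that of Ogn 0.098 without IgG 1. Lrrc15, known from TGF-beta-driven fibroblasts of pancreatic tumours, was too sparse for the test, with 160 UMIs in contractile and 33 in other cells.

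Among genes that remodel matrix, 1 protease and 2 protease inhibitors were higher. Of 16 tested proteases and inhibitors, none was lower, and 1.17% of all tested genes were higher. Fitted changes were above 0 in 7 of the 16, against 49.3% of all tested genes, and the list's median was -0.01. Timp1, a secreted inhibitor of matrix metalloproteinases, stood at 10779, 3875 and 6980.1 CPM in IgG 1, 2 and 3 and 5473, 6400.0 and 3881 CPM in anti-VSIG4 1, 2 and 3. In the other fibroblasts it stood at 3476, 1671 and 3246 CPM in IgG 1, 2 and 3 and 3510.2, 1992 and 3790.5 CPM in anti-VSIG4 1, 2 and 3, lower than in the contractile cells of the same mouse in all 6 (1.04 ± 0.19, adjusted p = 0.0061). Timp3, the inhibitor that stays bound to matrix, averaged 905 ± 213 against 353 ± 143 CPM (1.34 ± 0.22, adjusted p = 0.00296). Mmp14, the membrane-anchored collagenase, averaged 845 ± 235 against 414 ± 116 CPM (1.00 ± 0.18, adjusted p = 0.00401). All 3 passed with any 1 library left out, and Mmp14 did not when cells were thinned to 2000 UMIs (adjusted p = 0.068 over 690 genes; 6.45e-06 to 0.068 over all settings run).

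**Figure D3:**
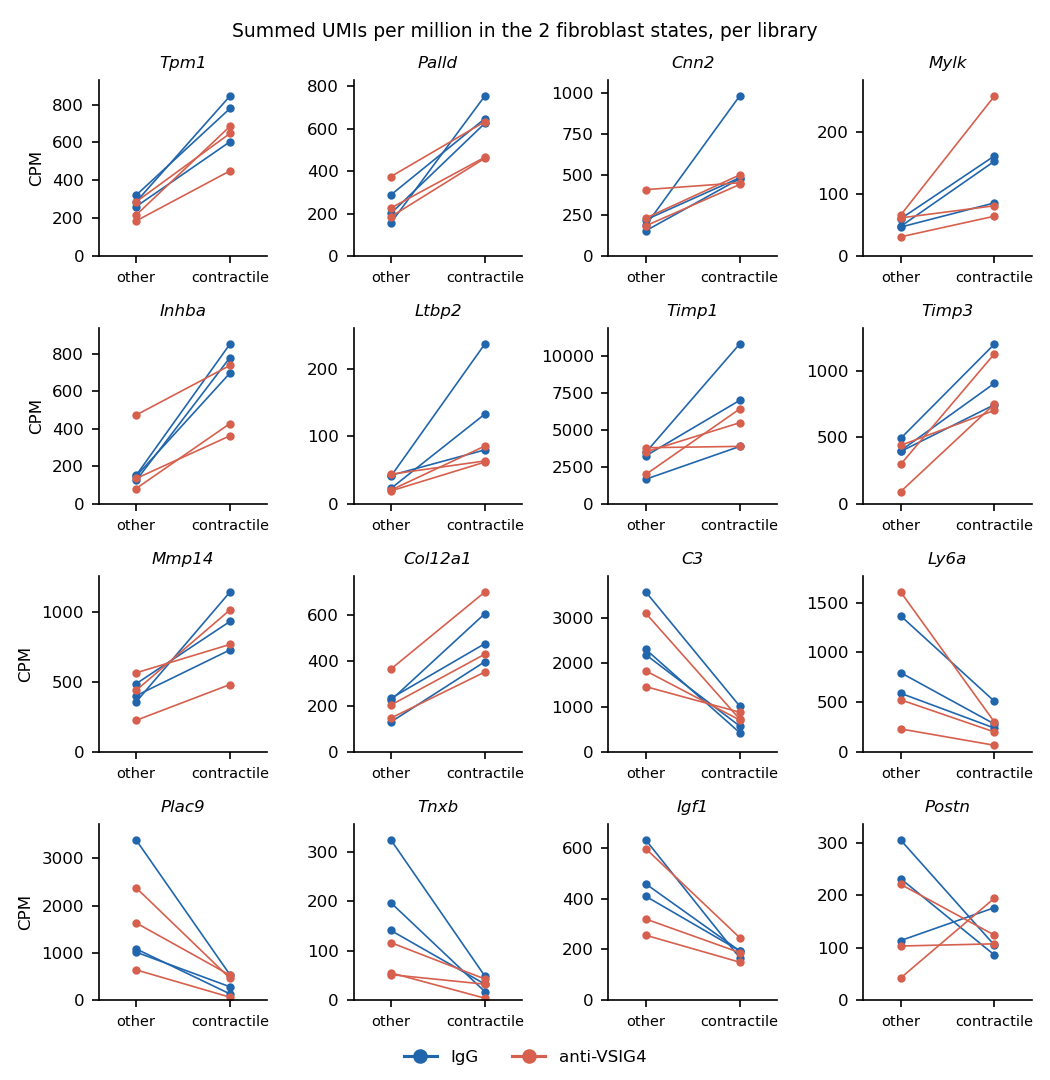
Each panel plots 1 gene in CPM on a linear axis from 0, with lines joining the other fibroblasts and the contractile cells of the same mouse, blue for IgG and red for anti-VSIG4. Cytoskeletal, activin and protease inhibitor genes rise from left to right in all 6 mice, C3, Ly6a, Plac9, Tnxb and Igf1 fall, and Postn crosses.

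Of 22 inflammatory fibroblast genes 20 were tested, C3 and Cxcl5 were lower, as were 1.14% of all tested genes, and none was higher. On this list 6 fitted changes were above 0 and the median was -0.46. The rule set genes shared with inflammatory fibroblasts against the contractile sum, so this direction is not independent of it. C3, the central complement component, stood at 1031, 583 and 435 CPM in IgG 1, 2 and 3 and 739, 718 and 892 CPM in anti-VSIG4 1, 2 and 3 in contractile cells. The corresponding C3 levels of the other fibroblasts were 3586, 2179.8 and 2299.6 CPM in IgG 1, 2 and 3 and 3109, 1817 and 1466 CPM in anti-VSIG4 1, 2 and 3. The ranges did not overlap (733 ± 212 against 2409.5 ± 797 CPM; -1.72 ± 0.20, adjusted p = 4.38e-05). Cxcl5, a chemokine that draws neutrophils, averaged 19.98 ± 23.8 against 128 ± 69.2 CPM (-2.82 ± 0.53, adjusted p = 0.0144), with an adjusted p of 0.054 without IgG 1 and 0.053 without IgG 2. C3 passed in every setting run. In the thinned cells the complement factor Cfb (-1.70 ± 0.29, adjusted p = 0.00322), the chemokines Ccl2 (-1.01 ± 0.25, adjusted p = 0.0262) and Ccl7 (-1.06 ± 0.26, adjusted p = 0.0262) and the NF-kappa-B inhibitor Nfkbia (-0.69 ± 0.20, adjusted p = 0.0472) were lower too.

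Of 17 genes of the resident, universal fibroblast beyond those in the rule, 11 were tested, 4 were lower (1.14% of all tested genes) and none was higher, 2 fitted changes were above 0 and the median was -0.84. Since the rule asked for few transcripts of genes of the same kind, this direction is not independent of it. Ly6a, the stem and progenitor antigen Sca-1, averaged 266 ± 145 against 852 ± 529 CPM (-1.63 ± 0.18, adjusted p = 2.06e-05). Tnxb, the matrix protein tenascin X, averaged 29.5 ± 16.6 against 148 ± 103 CPM (-2.27 ± 0.31, adjusted p = 0.000125). Cd34 fell by 1.69 on the log2 scale (adjusted p = 0.0165; 0.16 without IgG 1 and 0.056 without IgG 2) and Ackr3, a scavenging receptor for CXCL12, by 1.69 (0.0315; 0.091 without IgG 2). Plac9, a small secreted protein on no list, had the smallest p of all, with 332 ± 207 against 1689 ± 1029 CPM (-2.45 ± 0.22, adjusted p = 4.6e-06), and was lower in the contractile cells of every mouse.

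Of all tested genes 1.14% were lower, and 49.3% had a fitted change above 0. All 13 tested genes of MHC class I presentation had fitted changes below 0 (median -0.59). Of these 2 passed, the immunoproteasome subunit Psmb10 (-0.79 ± 0.19, adjusted p = 0.0222) and the heavy chain H2-K1 (-0.62 ± 0.15, adjusted p = 0.0365). The adjusted p of Psmb10 was 0.054 without IgG 1, 0.073 without IgG 2, 0.081 without anti-VSIG4 2 and 0.051 without anti-VSIG4 3. That of H2-K1 was 0.16 without IgG 1, 0.094 without IgG 3, 0.069 without anti-VSIG4 2 and 0.08 without anti-VSIG4 3. The class I heavy chains are near-identical to each other, and how shared reads were counted is not given. In the thinned cells H2-D1 (-1.07 ± 0.20, adjusted p = 0.00628) and B2m (-0.51 ± 0.13, adjusted p = 0.0289) passed in their place. All 7 tested genes of the antigen-presenting fibroblast list were below 0 as well (median -0.59), with none called. Its best known member Cd74, the MHC class II invariant chain, averaged 1045 ± 309 against 1653 ± 838 CPM (-0.63 ± 0.18, adjusted p = 0.074), and passed with H2-Eb1 in the thinned cells (-0.73 ± 0.18, adjusted p = 0.0262 and -0.95 ± 0.24, adjusted p = 0.0262). All 7 tested interferon response genes were below 0 (median -0.44), and none passed.

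Leukocyte markers lay on the same side as the MHC genes. The 6 tested of 8 macrophage markers and the 3 tested of 6 neutrophil markers were all below 0 (medians -0.61 and -0.41). Macrophage markers summed to 817 to 1581 CPM in the contractile cells of IgG mice and 1199 to 2646 CPM in those of anti-VSIG4 mice, against 682 to 3151 and 1565 to 5051 CPM in the other fibroblasts, with no marker at 0. Its part in the lower MHC genes was not tested. With cells of over 0.5% myeloid UMIs left out, a limit set after the data were seen, 47 of the 73 calls remained. Under that limit all 12 tested MHC class I genes were still below 0, and Psmb10 (-0.72, adjusted p = 0.057) and H2-K1 (-0.52, adjusted p = 0.14) did not pass. The antigen-presenting list then had 3 of 7 genes above 0, and Cd74 was at -0.25 (adjusted p = 0.69). The mesothelial markers, genes of the lining of the pancreas, summed to at most 234 CPM in contractile cells and to as much as 1047 CPM in the other fibroblasts of anti-VSIG4 3.

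Growth factors and their regulators gave calls in both directions. Igf1, insulin-like growth factor 1, stood at 167, 194 and 194 CPM in IgG 1, 2 and 3 and 246, 149 and 187 CPM in anti-VSIG4 1, 2 and 3 in contractile cells. The other fibroblasts held Igf1 at 631, 409 and 458 CPM in IgG 1, 2 and 3 and 597, 255 and 319.5 CPM in anti-VSIG4 1, 2 and 3. Contractile cells were lower in all 6 mice (-1.19 ± 0.19, adjusted p = 0.00107), and Igfbp4, which binds this growth factor, was lower as well (-0.77 ± 0.15, adjusted p = 0.005). Both passed with any 1 library left out. Pgf, placental growth factor, a ligand of the VEGF receptor FLT1, averaged 162 ± 135 against 61.1 ± 52.1 CPM and was higher (1.51 ± 0.35, adjusted p = 0.0312), with an adjusted p of 0.13 without IgG 1, 0.14 without IgG 2, 0.07 without IgG 3 and 0.081 without anti-VSIG4 2. Igfbp3 did not pass (1.25 ± 0.28, adjusted p = 0.0509). On the growth factor list 10 of 22 genes were tested, 2 were lower and none was higher, and Pgf is not on that list. For scale, 1.17% of all tested genes were higher, 1.14% were lower and 49.3% had a fitted change above 0. Sfrp1, a secreted antagonist of Wnt, averaged 957 against 533 CPM and was the 1 call among 7 tested Wnt and Hedgehog genes (0.76 ± 0.19, adjusted p = 0.0365; 0.096 without IgG 2, 0.1 without anti-VSIG4 1, 0.1 without anti-VSIG4 2 and 0.12 without anti-VSIG4 3, and 0.068 in the thinned cells), of which 6 were above 0 (median 0.75). Klf4, a transcription factor that opposes smooth muscle genes, was the 1 call among 13 tested mesenchymal transcription factors and was lower (-0.69 ± 0.16, adjusted p = 0.0218; 0.089 without IgG 1, 0.091 without IgG 2 and 0.066 without anti-VSIG4 2).

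Further lists had no call in the cells as sequenced, where 49.3% of all tested genes had a fitted change above 0. None of 19 tested genes of glycolysis and hypoxia passed (14 above 0, median 0.26). None of 18 early response and heat shock genes passed (2 above 0, median -0.27). None of 11 tested mitochondrially encoded genes passed (1 above 0, median -0.39), nor did any of 4 tested of 25 proliferation genes (median -0.31). In the thinned cells 32 of all 690 tested genes were lower and 18 were higher. Of 17 tested early response and heat shock genes 6 were lower there. They included Fos (-0.92 ± 0.17, adjusted p = 0.00566) and Atf3 (-1.15 ± 0.29, adjusted p = 0.0262), transcription factors induced within minutes of a stimulus. Of 10 tested glycolysis and hypoxia genes 3 were higher there, Pgk1 (0.88 ± 0.24, adjusted p = 0.0331), Pgam1 (0.80 ± 0.23, adjusted p = 0.0481) and Pkm (0.64 ± 0.18, adjusted p = 0.0472), all enzymes of glycolysis, and of 8 tested mitochondrially encoded genes mt-Atp6 was lower (-0.75 ± 0.20, adjusted p = 0.0304). At an unadjusted p below 0.05 the whole comparison held 461 genes, and DESeq2 called 80, of which 63 were among the 73.

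**Figure D4:**
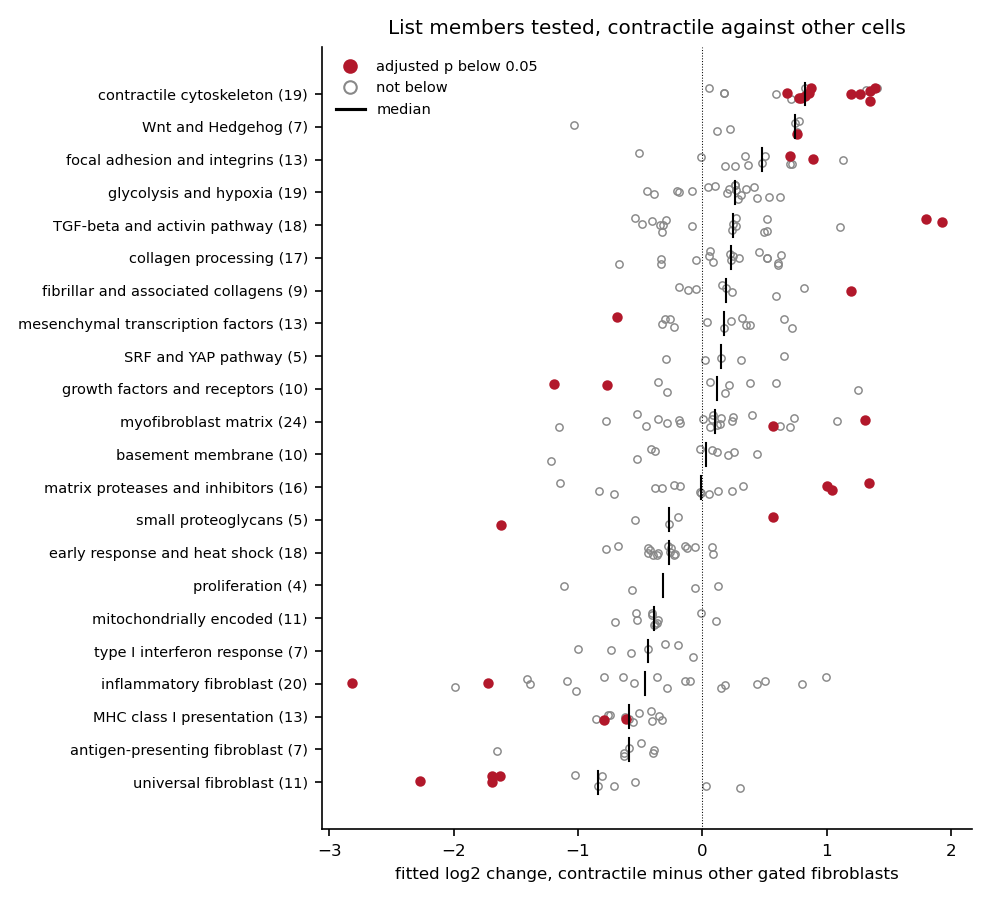
Each point is a tested member of a gene list, placed by its fitted log2 change between contractile and other fibroblasts, filled where the adjusted p is below 0.05, with the list's median as a black bar and the number tested in brackets. Contractile cytoskeleton genes are all above 0 with a median of 0.83, and the universal fibroblast list has a median of -0.84.

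Several of the largest changes were in genes on no list. Serinc2, a serine incorporator of membranes, changed by 2.05 ± 0.42, adjusted p = 0.00872, and Ptprn, a receptor-type phosphatase-like protein of secretory granules, by 1.60 ± 0.30, adjusted p = 0.005. Gpc1, the heparan sulfate proteoglycan glypican 1, averaged 292 ± 88.1 against 118 ± 38.5 CPM (1.30 ± 0.23, adjusted p = 0.00379). Ecscr, a membrane protein first described in endothelium, changed by 1.61 ± 0.31, adjusted p = 0.005. Of the endothelial markers that the gate did not use, Cldn5 was at 0 in the contractile cells, while Kdr, Flt1 and Egfl7 were detected. The endothelial list summed to a mean of 26.0 CPM in the contractile cells and 25.1 CPM in the other fibroblasts. Ppme1, a phosphatase methylesterase, changed by 1.34 ± 0.33, adjusted p = 0.0327, with an adjusted p of 0.17 without IgG 1, 0.09 without IgG 3, 0.092 without anti-VSIG4 2 and 0.056 without anti-VSIG4 3. Serinc2, Ptprn, Gpc1 and Ecscr passed with any 1 library left out.

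Among the lower genes outside the lists, Selenop, the plasma selenium carrier, averaged 30.4 ± 18.8 against 95.1 ± 12.4 CPM (-1.63 ± 0.31, adjusted p = 0.005). Serpina3n, a secreted protease inhibitor of the acute phase, changed by -1.64 ± 0.34, adjusted p = 0.0144. Svep1, a large extracellular adhesion protein, changed by -1.61 ± 0.31, adjusted p = 0.005. Lgals7, a galectin, changed by -1.79 ± 0.31, adjusted p = 0.00576, and Ifi205, one of a family of similar interferon-inducible genes, by -1.53 ± 0.29, adjusted p = 0.0061. These 5 passed with any 1 library left out, as did Plpp3, a lipid phosphatase (-1.22 ± 0.25, adjusted p = 0.00796). Pmp22, a tetraspan membrane protein, changed by -1.50 ± 0.32, adjusted p = 0.0113, with an adjusted p of 0.054 without IgG 2. Ace, angiotensin-converting enzyme, changed by -1.21 ± 0.31, adjusted p = 0.0436, with an adjusted p of 0.13 without IgG 1, 0.14 without IgG 2, 0.081 without anti-VSIG4 2 and 0.13 without anti-VSIG4 3. St3gal1, a sialyltransferase, changed by -1.31 ± 0.33, adjusted p = 0.0365, with an adjusted p of 0.13 without IgG 1, 0.063 without IgG 2, 0.13 without IgG 3 and 0.07 without anti-VSIG4 3.

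The last comparisons asked what the antibody changed within contractile cells. Of 2786 genes tested between 3 IgG and 3 anti-VSIG4 mice, none passed by edgeR (0%), while 84 had an unadjusted p below 0.05 and DESeq2 called 1. In 188 genes (6.75%) the values of the groups did not overlap, 71 higher (2.55%) and 117 lower (4.2%) with the antibody. Without any effect 3 against 3 values fall apart with a probability of 0.1, so this share is no excess. Where a gene named below was picked by its small p, a lack of overlap adds no support. The p-values measure the spread between these 3 mice a group, and the contractile cells of a mouse number as few as 11. Genes of the rule are given by their levels, with no test. The rule's contractile genes overlapped between the groups. Acta2 averaged 801 ± 264 in the IgG mice and 724 ± 577 CPM in the anti-VSIG4 mice, Tagln 2869 ± 1026 in the IgG mice and 2139 ± 751 CPM in the anti-VSIG4 mice and Myl9 369 ± 146 in the IgG mice and 262 ± 61.00 CPM in the anti-VSIG4 mice.

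Of 21 tested contractile cytoskeleton genes none passed and 4 had a change above 0 (50.5% of all tested genes), with a median of -0.24 (0.00388 over all genes) that moved to -0.05 without IgG 2. The smooth muscle genes Cnn1 and Actg2 did not pass (-1.28 ± 0.73, adjusted p = 0.994 and -1.03 ± 0.96, adjusted p = 0.994; Actg2 0.03 without IgG 1). Inhba averaged 776 ± 77.4 in the IgG mice and 509.8 ± 200.3 CPM in the anti-VSIG4 mice (-0.54 ± 0.33, adjusted p = 0.994) and Timp1 had a fitted change of -0.40 ± 0.34, adjusted p = 0.994 (0.0058 without IgG 1). Postn had a fitted change of 0.30 ± 0.37, adjusted p = 0.994 (-0.01 without anti-VSIG4 2). Col1a1, part of the gate, stood at 11071, 8052 and 9457 CPM in IgG 1, 2 and 3 and 11160.4, 12719 and 14085 CPM in anti-VSIG4 1, 2 and 3. All anti-VSIG4 values were above all IgG values, by a small margin.

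Pgf had the smallest p. It stood at 160.1, 309 and 345 CPM in IgG 1, 2 and 3 and 53.6, 42.7 and 59.9 CPM in anti-VSIG4 1, 2 and 3. Every anti-VSIG4 value was below every IgG value (271 ± 97.9 in the IgG mice and 52.1 ± 8.71 CPM in the anti-VSIG4 mice), and the fitted change was -2.36 ± 0.40 with an adjusted p of 0.166 in edgeR. It passed in DESeq2 (0.0057), without the filter on low counts (0.0034) and without IgG 1 (0.019), within a range of 0.00339 to 0.676 over the settings run. On log2(CPM + 10), the difference was -1.56 within the libraries with few nucleus-like barcodes and -2.27 within those with many. The same pair is given below as the difference within kind.

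Eln, elastin, stood at 279, 234 and 262 CPM in IgG 1, 2 and 3 and 74.97, 83.3 and 124 CPM in anti-VSIG4 1, 2 and 3. The groups did not overlap (-1.37 ± 0.34, adjusted p = 0.694), and the differences within kind were -1.70 and -0.95. Isg15, an interferon-induced ubiquitin-like protein, stood at 585, 1057 and 1118 CPM in IgG 1, 2 and 3 and 461, 179 and 292 CPM in anti-VSIG4 1, 2 and 3. These groups did not overlap either (-1.57 ± 0.39, adjusted p = 0.694; within kind -0.99 and -1.86). In the other fibroblasts of the same mice Isg15 averaged 934 CPM with IgG and 441 CPM with anti-VSIG4. Only 3 of 25 interferon response genes were tested in contractile cells, all below 0 (median -0.87). Cx3cl1, the chemokine fractalkine, averaged 105 ± 37.9 in the IgG mice and 24.8 ± 15.9 CPM in the anti-VSIG4 mice without overlap (-2.35 ± 0.54, adjusted p = 0.694; within kind -1.07 and -2.23). Stmn4, a microtubule regulator, was at 0 in anti-VSIG4 1 and 3 (67.2 against 1.42 CPM; adjusted p = 0.317). Hsd11b1, which activates glucocorticoids (87.4 against 22.6 CPM; adjusted p = 0.694), and Fdx1, a mitochondrial ferredoxin (129 against 48.5 CPM; 0.994) did not overlap between groups, and Cxcl9, an interferon-gamma-induced chemokine, did (456 ± 533 in the IgG mice and 57.8 ± 24.2 CPM in the anti-VSIG4 mice).

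On the higher side Irf8, a transcription factor of myeloid cells, stood at 13.9, 17.1 and 25.2 CPM in IgG 1, 2 and 3 and 96.4, 89.7 and 52.4 CPM in anti-VSIG4 1, 2 and 3. The groups did not overlap (2.01 ± 0.51, adjusted p = 0.694; within kind 2.11 and 1.02). Leukocyte RNA moved with it: all 6 tested macrophage markers and all 3 tested neutrophil markers were above 0 (medians 0.74 and 1.65), and neutrophil markers summed to 151 to 1588 CPM in contractile cells of IgG mice and 757 to 4627 CPM in those of anti-VSIG4 mice, with no marker at 0. Its part in Irf8, in Laptm5, a lysosomal protein of blood cells (98.03 against 191 CPM), and in Cd74 was not tested. Cd74 averaged 816 ± 192 in the IgG mice and 1273 ± 213 CPM in the anti-VSIG4 mice without overlap (0.67 ± 0.30, adjusted p = 0.994). H2-Eb1, an MHC class II chain, had a fitted change of 0.92 ± 0.37, adjusted p = 0.994, and all 7 tested genes of the antigen-presenting list were above 0 (median 0.65). Other lists were one-sided too, with no call, while 50.5% of all tested genes were above 0. Both tested tumour and epithelial markers were below 0 (median -1.35; within kind 1.06 and -2.43), and these markers summed to 139 to 886 CPM in the contractile cells of IgG mice and 154 to 290 CPM in those of anti-VSIG4 mice, with none at 0. Of 11 mitochondrially encoded genes 9 were above 0 (median 0.48; 1 of 11 above 0 without anti-VSIG4 1), and of 18 early response and heat shock genes 2 were (median -0.30; 7 of 18 without IgG 3 or anti-VSIG4 2). Their part in the values of single genes was not tested.

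H19, an imprinted noncoding RNA, averaged 45.95 ± 24.7 in the IgG mice and 131 ± 37.9 CPM in the anti-VSIG4 mice, and Cxcl12, a chemokine of stromal cells, 38.6 ± 21.3 in the IgG mice and 99.5 ± 26.4 CPM in the anti-VSIG4 mice, both without overlap. Tacc1 (54.4 against 124 CPM), the Wnt antagonist Dkk2 (32.4 against 73.5 CPM), Peds1 (38.2 against 104 CPM) and Lum, the proteoglycan lumican (103 against 272 CPM), were the other genes of smallest p on this side. All 8 failed the test, Irf8 at an adjusted p of 0.694 and the rest at 0.994. The 6 fibroblast markers outside the gate were all above 0 (median 0.38), against 50.5% of all tested genes, and none passed. Their median within kind was -0.10 in the libraries with few nucleus-like barcodes and 0.78 in those with many.

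**Figure D5:**
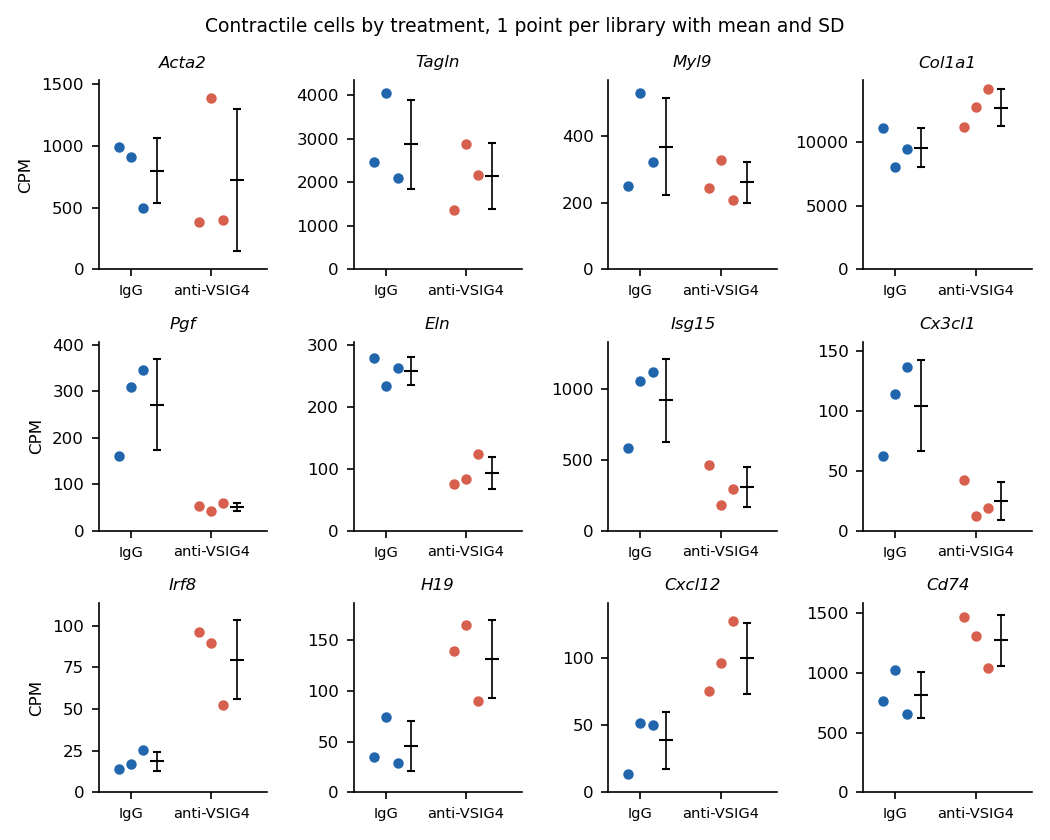
Each panel plots 1 gene in the contractile cells in CPM on a linear axis from 0, with 1 point per library, blue for IgG and red for anti-VSIG4, and the group mean with its SD as a black bar beside the points. Acta2, Tagln and Myl9 overlap between groups, while Pgf, Eln, Isg15 and Cx3cl1 are lower and Irf8, H19, Cxcl12, Cd74 and Col1a1 higher in all anti-VSIG4 libraries; no tested gene passed.

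Whether contractile cells responded differently from the other fibroblasts of the same mice was tested as an interaction over 4185 genes, of which 1 passed (0.0239%) and 191 had an unadjusted p below 0.05. The gene was Ptx3, pentraxin 3, a secreted recognition protein of innate immunity. It stood at 6.96, 5.72 and 25.2 CPM in IgG 1, 2 and 3 and 129, 42.7 and 3.75 CPM in anti-VSIG4 1, 2 and 3 in contractile cells. Ptx3 in the other fibroblasts stood at 127, 104 and 208 CPM in IgG 1, 2 and 3 and 154, 29.1 and 0 CPM in anti-VSIG4 1, 2 and 3. These levels rest on 1, 1 and 7 UMIs in the contractile cells of the IgG mice and 12, 20 and 1 in those of the anti-VSIG4 mice, and on 77, 49 and 90 and then 15, 9 and 0 UMIs in the other fibroblasts. Contractile cells of anti-VSIG4 1 and 2 were above all IgG values, while IgG 1, IgG 2 and anti-VSIG4 3 held 1 UMI each and cannot be ranked. The other fibroblasts of anti-VSIG4 2 and 3 were below all IgG values. The fitted difference of the 2 changes was 3.72 ± 0.69, adjusted p = 0.0316, and the call was lost in DESeq2 (0.43) and on leaving out any library except anti-VSIG4 3 (0.14 without IgG 1, 0.057 without IgG 2, 0.38 without IgG 3, 0.15 without anti-VSIG4 1 and 0.44 without anti-VSIG4 2), within a range of 0.00346 to 0.927 over the settings run. No other gene passed: the next smallest p-values were those of Hsd11b1 (-2.75 ± 0.64, adjusted p = 0.358), Ackr3 (2.66 ± 0.70, adjusted p = 0.718), Dmkn (2.79 ± 0.73, adjusted p = 0.718) and Cx3cl1 (-2.78 ± 0.75, adjusted p = 0.79).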

How the data were processed

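The deposited values are raw UMI counts per gene and cell barcode, 1 matrix per mouse, written by PISA 1.0 per the file headers. STAR and Seurat 4.11 are named in the submitters' processing notes without a role, while build and annotation were not given in the sources at hand. No doublet caller was run. Counts were summed per mouse over contractile cells and over other fibroblasts and tested with edgeR 4.0.16 (TMM, filterByExpr, robust quasi-likelihood) in R 4.3.3, with mouse as a block between states. DESeq2 1.42.0 was an alternative. Shares were compared by exact permutation over mice. The script was tested on simulated data. Totals per library and per cell set the precision.

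Named genes were the rule's 19 genes, the markers, the leading members of 22 pathway and 13 marker lists, up to 15 called genes per direction between states at 50 CPM or more and of 1 sign in all mice, 8 genes per direction of smallest p for treatment and 5 for the interaction. List genes named from cells thinned to 2000 UMIs were chosen after their values were seen. Rule genes stayed in the treatment fit, but only their levels are given. Members and lists were chosen with earlier results of these data known. Same-numbered mice correlated at 0.138, -0.0859 and 0.304 in their deviations, so the numbers were not taken as pairs. Promoters came from RefSeq (GRCm38.p6). Values of 1 marker list are not reported here.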

Additional observations from a re-analysis of the deposited data

Results flagged for a closer look

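Ptx3 was the 1 gene whose treatment change differed between contractile cells and the other fibroblasts by a test of the difference itself, at 3.72 on the log2 scale (edgeR adjusted p = 0.0316). Its mean went from 12.6 to 58.3 CPM in contractile cells and from 146 to 61.2 CPM in the other fibroblasts. Leaving out cells with over 0.5% myeloid UMIs gave an adjusted p of 0.93, asking for a contractile sum of at least 5 gave 0.17, and the fit with the replicate block gave 0.23, within a range of 0.00346 to 0.927 over the settings run.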

How the results depend on the processing

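The share among fibroblasts kept its direction except without cells of more than 3 myeloid UMIs, where it was -24.6 points and anti-VSIG4 1 and 3 kept 1 fibroblast each. The share of all barcodes reversed to -0.0581 under that limit, to -0.174 within libraries with many nucleus-like barcodes, and ranged from -0.201 without anti-VSIG4 2 and -0.0137 without IgG 2 to 0.155 on leaving out single libraries. With the replicate block the fibroblast share differed by 12.6 points (exact sign-flip permutation p = 0.25, the smallest possible), treatment calls stayed at 0 and interaction calls fell to 0 from 1. Treatment calls were 1 in DESeq2, 4 without the filter on low counts and 0 to 1 on leaving out libraries (1 without IgG 1). State calls, 73 in all, were 171 without that filter, 23 without the mouse block and 37 to 91 on leaving out libraries. With both states thinned to 2000 UMIs per cell and shallower cells left out, they were 50 of 690 genes. Of these 18 were higher and 32 lower, against 37 and 36, and 20 were among the 73. Interaction calls were 0 at a contractile sum of 5, 0 without cells of over 0.5% myeloid UMIs, 0 in DESeq2, 8 without the filter and 0 to 2 on leaving out libraries. On leaving out libraries the treatment change ranged from -3.02 to 0.0340 for Actg2, from -0.665 to 0.0058 for Timp1 and from -0.0099 to 0.629 for Postn, which was -0.44 at a sum of 2. The state difference of Postn ranged from -0.683 to 0.11 and was 0.21 at a sum of 2. None of these passed, and the cause was not tested. Gene fits under the limit of 3 myeloid UMIs were not run because 2 mice kept no contractile cell, nor was a split of libraries at 1% nucleus-like barcodes, which leaves 1 library below it. The treatment test rests on 3 mice a group and on 11 to 54 contractile cells a mouse.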
